A study of Mus musculus with 22 samples.

Results

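The genes described here are 10 antioxidant and NRF2 target genes: Nqo1, Hmox1, Gclc, Gclm, Txnrd1, Srxn1, Gpx3, Gpx1, Sod2 and Cat. They were chosen by symbol, through the Ensembl identifiers that GENCODE pairs with these names, and are 10 of the 49670 genes in the table of the right ventricle (RV) and of the 49671 genes in the table of the left ventricle (LV). All 10 were found in both tables, and all 10 passed the filter on low values, a table mean of at least 10. Bulk RNA was sequenced from the hearts of CD1 mice, an outbred stock, with no allele or transgene named in the labels. The nPAB groups had neonatal pulmonary artery banding, made with a 30G needle on postnatal day 1 (P1), which narrows the outflow of the RV. The Sham groups were operated on the same day without a band, and all hearts were taken 7 days after surgery. The 4 groups were RV nPAB and LV nPAB, both from 6 mice, and RV Sham and LV Sham, both from 5 mice.

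The libraries held 7.11 to 11.3 M reads. Cardiomyocyte markers fixed for the check of the tissue, 8 genes such as Myh6 and Tnnt2, were present in each library at a sum of 475890 to 744662 normalized counts. For nPAB mice 6 and 7 the LV and the RV library differed in sex by Xist and Ddx3y, whereas 9 of the 11 mice gave 1 sex in both. The labelled pairs of mice 6 and 7 thus did not each come from 1 animal, and results are given with and without these mice. By the same genes 3 of 6 nPAB and 2 of 5 Sham libraries were female in either ventricle. In bulk RNA, fewer cells of a type and less RNA per cell cannot be told apart.

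NRF2, the transcription factor encoded by Nfe2l2, is held at a low level by KEAP1, which hands it to a CUL3 ubiquitin ligase for degradation. Oxidants and electrophiles modify KEAP1, and NRF2 then enters the nucleus, pairs with a small MAF protein and binds antioxidant response elements of its targets. BACH1 competes for the same elements, most of all at Hmox1. The heart muscle of the newborn moves from glycolysis to oxidative metabolism in the first days of life, and these enzymes handle the oxidants that respiration yields.

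The stretch upstream of the start site is shown for the 3 members that rose in the RV (Gpx3, Nqo1 and Gpx1). It is also shown for the 3 members with a match to an NRF2-type motif (Gclm, Srxn1 and Txnrd1). The latter were chosen by the motif, so the sets cannot be compared for it. Sod2 and Cat, which did not rise and had no match, are not shown. Promoters are from RefSeq on build GRCm38.p6. Of the 10 members 8 were matched in RefSeq by symbol, with 10 windows of 300 bases (250 before and 50 after a start). Sequences run 5′ to 3′ on the strand of the gene from position -250 and stop before the first base that GENCODE annotates as untranslated region. Positions count from the RefSeq start. The GENCODE genes begin at 54902453 (Gpx3), 108338903 (Gpx1), 152105516 (Srxn1) and 82833951 (Txnrd1), so these stretches lie wholly or partly inside the annotated gene. Gpx3 is at chr11:54902604-54902771 (plus strand), Nqo1 at chr8:107403207-107403455 (minus strand), Gpx1 at chr9:108338830-108339053 (plus strand), Gclm at chr3:122245307-122245556 (plus strand), Srxn1 at chr2:152105274-152105523 (plus strand) and Txnrd1, at 1 of its 3 windows, at chr10:82858956-82859178 (plus strand). Capitals mark a match to TGACNNNGC, the core of the antioxidant response element, or to TGANTCAGC, the related element of the NF-E2 and MAF type.
Gpx3: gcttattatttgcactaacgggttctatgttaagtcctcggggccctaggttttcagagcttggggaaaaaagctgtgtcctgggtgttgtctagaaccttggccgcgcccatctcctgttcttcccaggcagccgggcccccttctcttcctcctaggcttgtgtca
Nqo1: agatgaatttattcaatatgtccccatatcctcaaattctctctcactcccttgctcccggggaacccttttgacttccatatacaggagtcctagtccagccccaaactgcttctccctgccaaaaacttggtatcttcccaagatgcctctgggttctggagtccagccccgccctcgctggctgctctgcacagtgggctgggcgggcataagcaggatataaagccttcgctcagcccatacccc
Gpx1: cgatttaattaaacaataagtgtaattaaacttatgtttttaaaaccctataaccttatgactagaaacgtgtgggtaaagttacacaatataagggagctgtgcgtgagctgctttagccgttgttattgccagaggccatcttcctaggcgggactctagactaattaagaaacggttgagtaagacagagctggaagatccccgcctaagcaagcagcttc
Gclm: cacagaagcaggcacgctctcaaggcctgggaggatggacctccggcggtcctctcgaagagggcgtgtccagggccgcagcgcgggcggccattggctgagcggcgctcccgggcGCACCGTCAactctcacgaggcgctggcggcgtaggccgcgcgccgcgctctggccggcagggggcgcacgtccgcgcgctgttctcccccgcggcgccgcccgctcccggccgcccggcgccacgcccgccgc
Srxn1: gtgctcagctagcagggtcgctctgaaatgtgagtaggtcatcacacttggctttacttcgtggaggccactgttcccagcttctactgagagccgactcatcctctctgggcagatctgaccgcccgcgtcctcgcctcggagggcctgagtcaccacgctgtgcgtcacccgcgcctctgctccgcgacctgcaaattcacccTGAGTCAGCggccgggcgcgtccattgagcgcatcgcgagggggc
Txnrd1: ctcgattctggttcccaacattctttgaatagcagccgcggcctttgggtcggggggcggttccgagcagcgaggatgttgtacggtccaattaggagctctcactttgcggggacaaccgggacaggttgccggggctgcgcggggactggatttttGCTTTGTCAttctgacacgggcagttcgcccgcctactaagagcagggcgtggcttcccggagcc

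Both motifs were searched on both strands over the whole 300 bases, and some sites can match both. Gclm held TGACGGTGC on the opposite strand, with its match starting at -134. Srxn1 held TGAGTCAGC on its own strand from -45 and TGACCTAGC on the opposite strand from 29, past the start site and outside the printed stretch. Txnrd1 held TGACAAAGC on the opposite strand from -92. No match lay in the windows of Gpx3, Nqo1, Gpx1, Sod2 and Cat, which says only that these letters are not in these windows. Of all 32851 windows in the table, 12.4% held TGACNNNGC, 1.19% held TGANTCAGC and 13.0% held either, and 3 of the 10 windows of the members did.

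Levels can be set side by side only per length, here as reads per kb of all annotated exons per M reads of a library. Gpx1 had the highest median over the 22 libraries (194, range 175 to 239), followed by Cat (131, range 97.6 to 178), Gpx3 (109, range 57.6 to 437) and Sod2 (52.5, range 37.9 to 63.5). The ranges of Gpx1, Cat and Gpx3 overlapped, and Sod2 lay below Gpx1 and Cat in every library but reached into the range of Gpx3. The 6 others lay below the lowest Sod2 value in every library. Nqo1 had a median of 12.1 (range 4.40 to 17.9), Hmox1 of 10.3 (7.40 to 17.1) and Gclm of 7.25 (6.34 to 9.06), and neighbours in this order overlapped. Below Gclm with no overlap came Txnrd1 at 4.44 (3.53 to 5.80), then Gclc at 3.96 (1.84 to 5.53) and Srxn1 at 2.51 (0.965 to 4.75), again overlapping with the next in order. The scale counts all annotated exons, including those of minor transcripts, so a gene with many of them is placed too low.

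**Figure D1:**
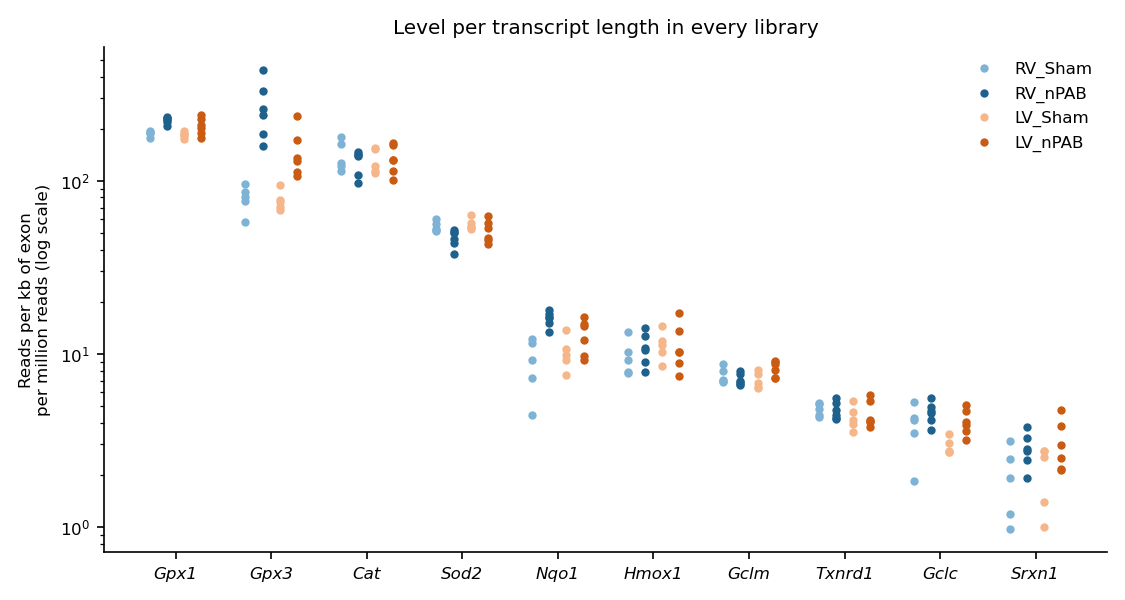
Reads per kb of exon per M reads (log scale) for each of the 10 genes, 1 point per library, coloured by group. Gpx3 moves from below Gpx1 in all 5 RV Sham libraries to above it in 4 of 6 RV nPAB libraries.

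In the RV, which pumps against the band, Gpx3, Nqo1 and Gpx1 rose and no member fell. Gpx3, the secreted glutathione peroxidase, was 3.46-fold higher, Nqo1, a quinone reductase, 2.01-fold and Gpx1, the glutathione peroxidase of the cytosol and mitochondria, 1.27-fold. In the LV, which is not banded, Gpx3 rose 1.94-fold and Gclc, the catalytic subunit for glutathione synthesis, 1.43-fold. Hmox1, Gclm, Txnrd1, Srxn1, Sod2 and Cat did not pass the test in either ventricle.

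A gene was called at a Benjamini-Hochberg adjusted p under 0.05 over all genes tested, with limma on log2 of the normalized count plus 1. That scale understates changes of low genes. In the RV 3 of 10 members were called, where 22.0% of 13660 tested genes were called (11.1% higher, 10.8% lower). In the LV 2 of 10 were called, where 9.31% of 13528 tested genes were called (4.76% higher, 4.55% lower). The median log2 fold change of the members was 0.30 in the RV and 0.25 in the LV, beside 0.00 and -0.01 over all genes tested. Estimates lay above 0 for 8 of 10 members in the RV and 9 of 10 in the LV. The members, and the lists read further on, were chosen with earlier results of these data known. Their counts and medians thus describe these genes and do not test them as a set. With mice 6 and 7 left out, which was decided once the sexes had been seen, 3 members were called in the RV, where 20.4% of all tested genes were, and 1 in the LV, where 4.93% were. Within a ventricle nPAB and Sham are separate mice by the labels, and the p-values measure the spread between these mice. The RV and LV groups of a treatment share their mouse numbers, so calls in the RV and the LV are not independent.

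**Figure D2:**
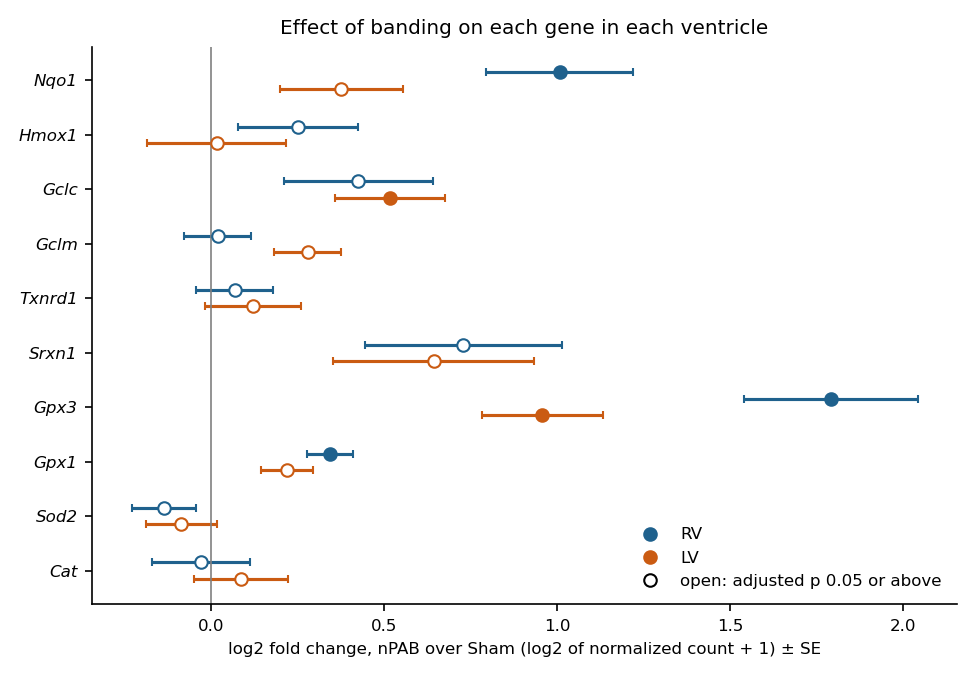
Log2 fold change of nPAB over Sham (log2 of normalized count + 1) with its standard error for each gene in the RV (6 against 5 libraries) and the LV (6 against 5), filled where the adjusted p was under 0.05. Gpx3 lies farthest to the right in both ventricles, at 1.79 in the RV and 0.96 in the LV, and Sod2 lies furthest to the left, at -0.14 and -0.09.

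Quinone and heme enzymes came first by role. Nqo1 (ENSMUSG00000003849, chromosome 8, 107388225 to 107403206, minus strand, protein coding) reduces quinones directly to hydroquinones and is a standard readout of NRF2 activity. In RV Sham its normalized counts were 122, 162, 57.9, 98.2 and 156 in mice 9 to 13. In RV nPAB they ranged from 186 to 248 with a median of 233. All 6 nPAB libraries lay above all 5 Sham libraries, as for 6.84% of all genes tested (6.06% lay wholly below), and the Sham libraries were the more scattered, mouse 11 being the lowest. The means were 227 ± 23.1 (SD, n = 6) against 119 ± 43.0 (SD, n = 5), with a log2 fold change of 1.01 ± 0.21 SE (limma adjusted p = 0.00236). Without mice 6 and 7 the log2 fold change of Nqo1 in the RV was 1.04 (limma adjusted p = 0.00704).

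In the LV, Nqo1 ranged from 135 to 224 with a median of 184 in nPAB and was at 141, 184, 100, 123 and 133 in Sham mice 9 to 13. The groups overlapped, with nPAB mice 5, 10 and 11 inside the Sham range. The log2 fold change was 0.38 ± 0.18 SE and did not pass (limma adjusted p = 0.196). Hmox1 (ENSMUSG00000005413, chromosome 8, 75093621 to 75100589) breaks heme down to biliverdin, carbon monoxide and iron. Its counts were 129 to 220 in RV nPAB and 117 to 202 in RV Sham, 118 to 287 in LV nPAB and 128 to 219 in LV Sham. The groups overlapped in both ventricles, with log2 fold changes of 0.25 (limma adjusted p = 0.333) in the RV and 0.02 (limma adjusted p = 0.970) in the LV, the latter taking either sign when single libraries were left out (-0.13 to 0.12).

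**Figure D3:**
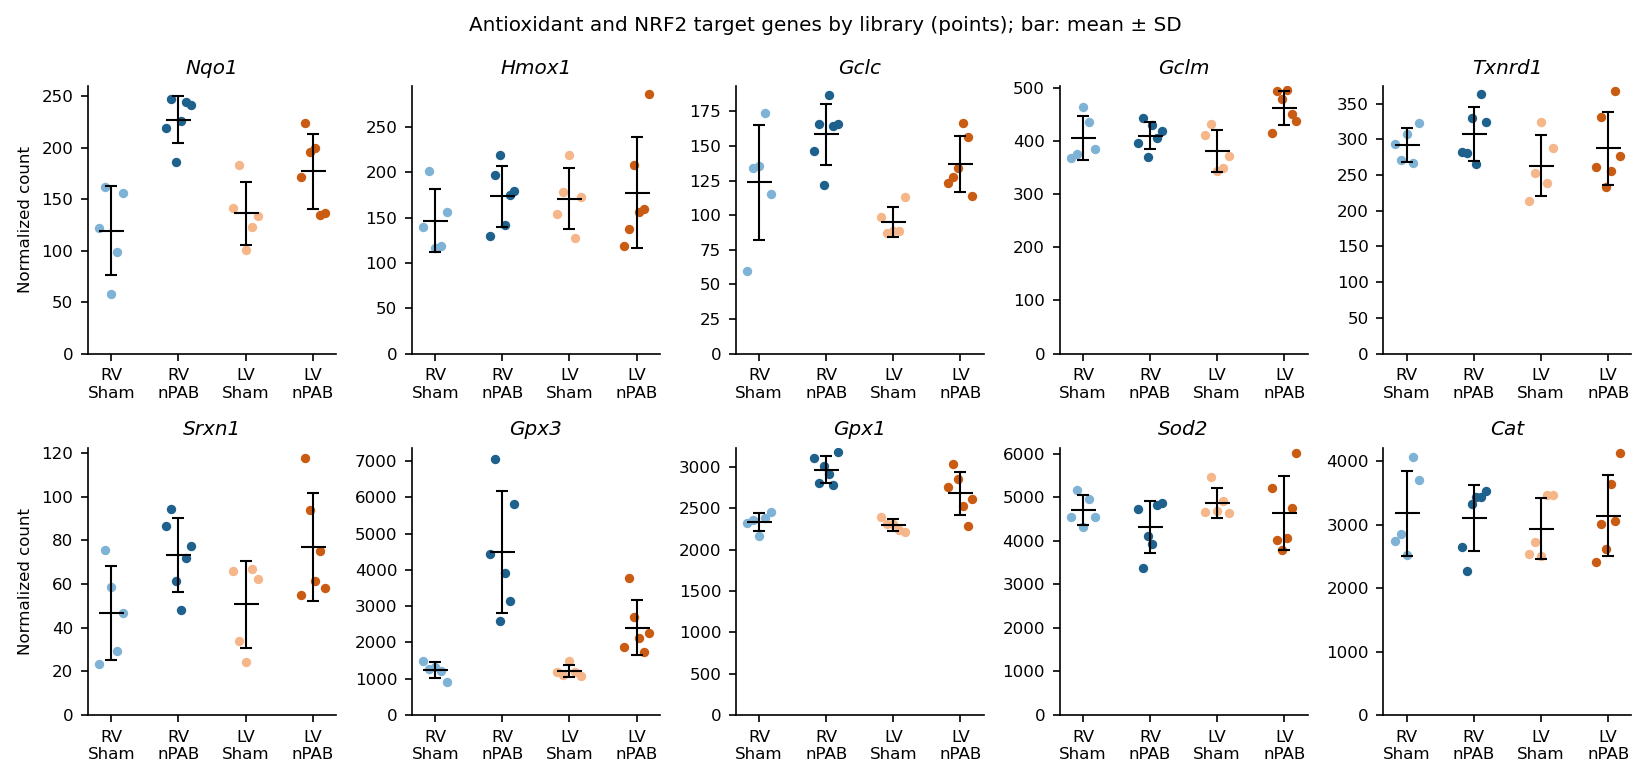
Normalized counts of each gene in the 22 libraries (points) by group, with the mean and SD as a bar, each axis starting at 0. RV nPAB libraries of Gpx3, Nqo1 and Gpx1 all sit above the RV Sham libraries, as do LV nPAB libraries of Gpx3 and Gclc above LV Sham, and the groups of the other genes overlap.

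The enzymes of glutathione synthesis came next. Gclc (ENSMUSG00000032350, chromosome 9, 77754535 to 77794485) encodes the catalytic subunit of glutamate-cysteine ligase, the rate-limiting step. In LV Sham its counts were 98.4, 87.0, 88.3, 88.2 and 113 in mice 9 to 13, and in LV nPAB they ranged from 114 to 167 with a median of 131. The groups did not overlap, as for 3.38% of all genes tested in the LV (3.16% lay wholly below), but nPAB mouse 11 at 113.7 and Sham mouse 13 at 113.0 were almost equal. The means were 137 ± 20.4 (SD, n = 6) against 95.0 ± 11.1 (SD, n = 5), a log2 fold change of 0.52 ± 0.16 SE (limma adjusted p = 0.0469). This call stood near the threshold: it held in 10 of 23 alternatives, with adjusted p between 0.0169 and 0.115. It was lost without mice 6 and 7 (log2 fold change 0.55, limma adjusted p = 0.102) and when most single libraries were left out.

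In the RV, Gclc ranged from 122 to 187 in nPAB with a median of 165, and was at 59.5, 134, 136, 174 and 115 in Sham mice 9 to 13. Only Sham mouse 9 was far below the others, and the groups overlapped (log2 fold change 0.43 ± 0.21 SE, limma adjusted p = 0.173). Gclm (ENSMUSG00000028124, chromosome 3, 122245557 to 122270732) encodes the modifier subunit of the same ligase. In the RV its counts nearly coincided, at 369 to 444 in nPAB and 369 to 464 in Sham, with a log2 fold change of 0.02 (limma adjusted p = 0.911). In the LV they were 416 to 496 in nPAB with a median of 465, and 411, 432, 344, 349 and 371 in Sham mice 9 to 13. There 5 of 6 nPAB libraries lay above every Sham library and that of mouse 5 lay inside the Sham range. The log2 fold change of Gclm in the LV was 0.28 ± 0.10 SE (limma adjusted p = 0.0750), which passed with DESeq2 (adjusted p = 0.0481) and with no other alternative. Exons of Gclm share 296 bases with the antisense gene Gm17494, whose mean was 12.7 normalized counts in the RV and 9.89 in the LV. Whether counting used strand is not given in the sources used here. They also share 244 bases with the pseudogene Gm6061 on the same strand, whose mean was 0 in both ventricles.

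Of the genes of thiol repair, Txnrd1 (ENSMUSG00000020250, chromosome 10, 82833951 to 82897712) encodes the cytosolic thioredoxin reductase, a selenoprotein that recharges thioredoxin from NADPH. Its counts were 266 to 364 in RV nPAB and 268 to 323 in RV Sham, 233 to 367 in LV nPAB and 214 to 324 in LV Sham. The groups overlapped over most of their range, with log2 fold changes of 0.07 (limma adjusted p = 0.711) in the RV and 0.12 (limma adjusted p = 0.636) in the LV. Srxn1 (ENSMUSG00000032802, chromosome 2, 152105516 to 152111376) encodes sulfiredoxin, which repairs over-oxidized peroxiredoxins. It was the member with the fewest reads, 22 to 142 in a library, and its SD was 45.8% of the mean in RV Sham and 23.0% in RV nPAB.

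Srxn1 was at 86.5, 94.5, 61.4, 48.1, 72.0 and 77.4 normalized counts in RV nPAB mice 5, 6, 7, 8, 10 and 11, and at 23.4, 75.6, 58.7, 29.2 and 47.0 in RV Sham mice 9 to 13. Only nPAB mice 5, 6 and 11 lay above every Sham library. The log2 fold change of 0.73 ± 0.28 SE did not pass (limma adjusted p = 0.0741). It passed in 2 of 23 alternatives, without Sham mouse 10 (0.93, limma adjusted p = 0.0271) and without nPAB mouse 8 (0.84, limma adjusted p = 0.0484). In the LV the counts of Srxn1 were 55.2 to 118 in nPAB and 24.4 to 66.7 in Sham. The groups overlapped there too, with nPAB mice 6 and 7 the highest, and the log2 fold change of 0.64 ± 0.29 SE (limma adjusted p = 0.177) was 0.39 without those mice.

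The enzymes that remove peroxide and superoxide included the largest change. Gpx3 (ENSMUSG00000018339, chromosome 11, 54902453 to 54910377) encodes a selenium-dependent peroxidase that is secreted and circulates in plasma. In RV Sham its counts were 1484, 1260, 1330, 1212 and 910 in mice 9 to 13. In RV nPAB they were 4427, 7064, 2586, 3914, 3130 and 5816 in mice 5, 6, 7, 8, 10 and 11. The lowest nPAB library, that of mouse 7, lay well above the highest Sham library, and the nPAB libraries spread over a wider range. The means were 4490 ± 1685 (SD, n = 6) against 1239 ± 211 (SD, n = 5), a log2 fold change of 1.79 ± 0.25 SE (limma adjusted p = 6.91e-04). Without mice 6 and 7, the highest and the lowest nPAB library, it was 1.78 ± 0.18 SE (limma adjusted p = 8.39e-05).

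In the LV, Gpx3 was at 1863, 3773, 2713, 2135, 1724 and 2253 in nPAB mice 5, 6, 7, 8, 10 and 11, and at 1197, 1100, 1477, 1178 and 1073 in Sham mice 9 to 13. All 6 nPAB libraries lay above all 5 Sham libraries, and the highest were those of mice 6 and 7. The log2 fold change was 0.96 ± 0.17 SE (limma adjusted p = 0.00532), and 0.73 ± 0.10 SE (limma adjusted p = 8.76e-04) without these mice. Calls of Gpx3 held in all 23 alternatives run in each ventricle. Per length, Gpx3 lay below Gpx1 in every library of RV Sham, LV Sham and LV nPAB, and above it in 4 of the 6 libraries of RV nPAB.

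Gpx1 (ENSMUSG00000063856, chromosome 9, 108338903 to 108340343) is the most widely expressed selenium-dependent peroxidase, and its values were even (SD 3.10% to 9.81% of the mean over the 4 groups). In RV Sham its counts were 2325, 2358, 2159, 2382 and 2448 in mice 9 to 13, and in RV nPAB they ranged from 2776 to 3182 with a median of 2961. The groups did not overlap, although the shift was small. The means were 2965 ± 163 (SD, n = 6) against 2335 ± 108 (SD, n = 5), a log2 fold change of 0.34 ± 0.07 SE (limma adjusted p = 0.00132). Without mice 6 and 7 the log2 fold change of Gpx1 in the RV was 0.36 (limma adjusted p = 0.00225). In the LV the counts of Gpx1 were 2285 to 3034 in nPAB and 2209 to 2390 in Sham. There 5 of 6 nPAB libraries lay above all Sham libraries and that of mouse 10 lay inside their range. The log2 fold change was 0.22 ± 0.07 SE (limma adjusted p = 0.0701). It passed without nPAB mouse 10 (0.26, limma adjusted p = 0.0266), with library weights (adjusted p = 0.0409) and with DESeq2 (adjusted p = 0.0386). It also passed with both ventricles fitted together and the labelled mouse number as a block (limma adjusted p = 0.0316). Without mice 6 and 7 it was 0.15 (limma adjusted p = 0.276).

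Sod2 (ENSMUSG00000006818, chromosome 17, 13006846 to 13040063) encodes the manganese superoxide dismutase of mitochondria. Its counts were 3385 to 4854 in RV nPAB and 4319 to 5169 in RV Sham, and 3795 to 6007 in LV nPAB and 4632 to 5460 in LV Sham. The groups overlapped, although the lowest libraries of either ventricle were nPAB. The log2 fold changes were -0.14 ± 0.09 SE (limma adjusted p = 0.325) in the RV and -0.09 ± 0.10 SE (limma adjusted p = 0.660) in the LV. Cat (ENSMUSG00000027187, chromosome 2, 103453849 to 103485160) encodes catalase, which breaks hydrogen peroxide down in peroxisomes. Its counts were 2277 to 3535 in RV nPAB and 2519 to 4079 in RV Sham, and 2408 to 4128 in LV nPAB and 2504 to 3470 in LV Sham. Each group spanned most of the range of the other, with log2 fold changes of -0.03 (limma adjusted p = 0.918) in the RV, whose sign turned without mice 6 and 7 (0.05), and 0.09 (limma adjusted p = 0.747) in the LV.

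Whether banding moved a gene more in the RV than in the LV was tested on log2 RV minus log2 LV of each mouse number, nPAB against Sham. With limma none of the 10 members passed, where 1.11% of 13364 tested genes were called (0.584% higher in the RV, 0.524% lower). At an unadjusted p under 0.05 stood 2 members, Gpx3 and Nqo1, where 12.5% of all genes did. The numbers pair nPAB mice 6 and 7 only by label. For Gpx3 the difference by number, set to a Sham mean of 0, was 1.22, 0.87, -0.10, 0.84, 0.83 and 1.34 in nPAB mice 5, 6, 7, 8, 10 and 11, and -0.27 to 0.28 in Sham. All nPAB mice but mouse 7 lay above every Sham mouse. The difference of 0.83 ± 0.24 SE had an adjusted p of 0.172 with limma and of 0.0303 with DESeq2.

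That limma value rested on mouse 7, the nPAB mouse with the lowest difference (-0.10). The LV and RV libraries of mouse 7 differed in sex, but so did those of mouse 6, whose difference was 0.87. Whether the mismatch accounts for the value of mouse 7 was not tested. The fit without mouse 7 alone kept mouse 6 as labelled. Without nPAB mouse 7 the difference of Gpx3 was 1.02 ± 0.11 SE (limma adjusted p = 2.62e-06), and without mice 6 and 7 it was 1.06 ± 0.12 SE (limma adjusted p = 1.67e-06), where 3.75% of all tested genes were called. Leaving out any other single mouse gave adjusted p from 0.223 to 0.303. Of 24 alternatives, the difference of Gpx3 passed in 3, with adjusted p up to 0.600 over all of them. For Nqo1 the difference by number was 0.60, 0.40, 0.18, 0.43, 1.11 and 1.07 in the same order of nPAB mice, above the Sham mean in all 4 mice other than 6 and 7, and -0.53 to 0.48 in Sham. With the LV libraries of mice 6 and 7 crossed to match the sexes, RV 6 minus LV 7 was 1.35 for Gpx3, 0.59 for Nqo1 and -0.05 for Gpx1. RV 7 minus LV 6 was then -0.58, -0.01 and -0.04, so for Gpx3 crossing set these values further apart. By number the groups of Nqo1 overlapped, and its difference of 0.63 ± 0.22 SE did not pass (limma adjusted p = 0.188, and 0.80 with an adjusted p of 0.0514 without mice 6 and 7).

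Gclm stood on the other side, with differences of -0.29 to -0.15 in the 4 nPAB mice other than 6 and 7, all below the Sham mean, and -0.29 to 0.34 in Sham. Its difference of -0.26 did not pass either (limma adjusted p = 0.445). For the remaining members the difference lay between -0.11 (Cat) and 0.23 (Hmox1). Gpx1, called in the RV, had a difference of 0.12 (limma adjusted p = 0.595), and Gclc, called in the LV, of -0.09 (limma adjusted p = 0.938). In Sham hearts the ventricles were compared as reads per M reads, and no test was run. Sod2 was lower in the RV in 5 of 5 Sham mice (mean log2 RV minus LV -0.05 ± 0.03 SD), and Cat was higher in 5 of 5 (0.10 ± 0.06 SD). The other members had mice of either sign. The share of all genes with 1 sign in all 5 mice is not given here, so no difference between the chambers is drawn from this. Gpx3 was at 144 ± 25.5 in the RV and 140 ± 18.9 in the LV (SD, n = 5).

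**Figure D4:**
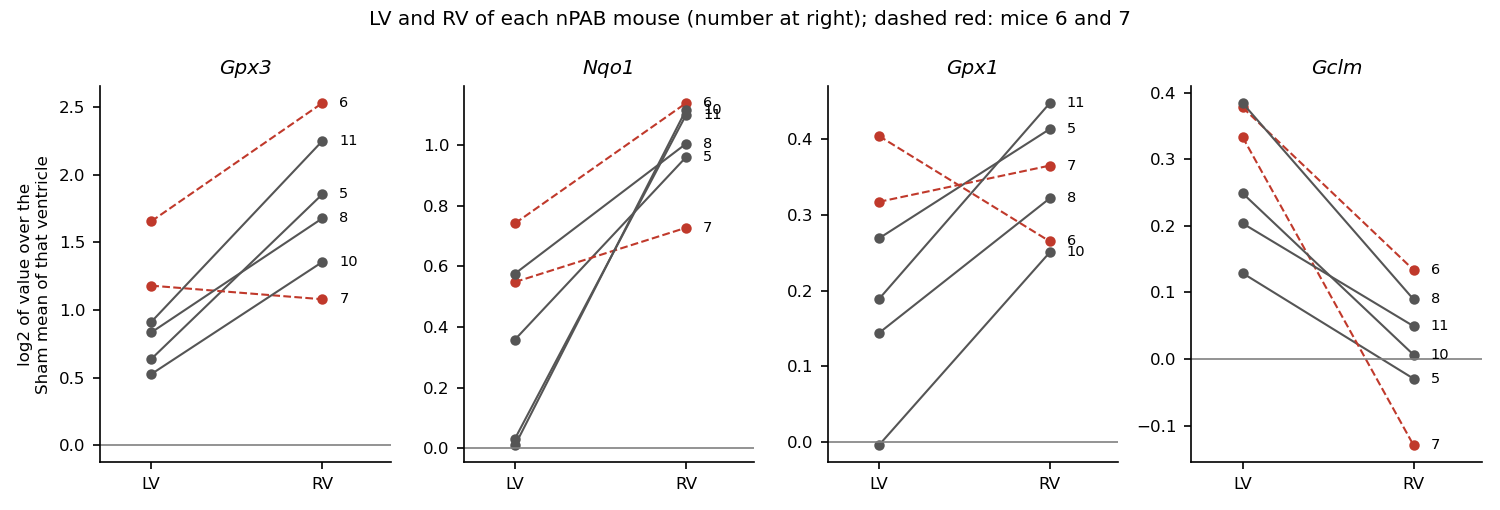
Log2 of the value over the Sham mean of the same ventricle, in the LV and RV of each nPAB mouse, for Gpx3, Nqo1, Gpx1 and Gclm, with lines joining libraries with 1 mouse number and mice 6 and 7 dashed. In the 4 mice other than 6 and 7 (solid), lines rise from LV to RV for Gpx3, Nqo1 and Gpx1 and fall for Gclm, and the dashed lines join libraries that are not 1 animal by sex.

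Around these 10 genes, 9 lists of the same pathways were read from the same fits, 108 genes of which 105 were tested. In the RV 17 rose and 9 fell (24.8% called, beside 22.0% of all genes), and in the LV 8 rose and 4 fell (11.4%, beside 9.31%). The median log2 fold change of the 105 genes was 0.09 in both ventricles. No gene of these lists passed the test of the difference between ventricles. Without mice 6 and 7, 15 rose and 9 fell in the RV, with 20 of the 26 calls shared, and 2 rose and 2 fell in the LV, with 4 of the 12 calls shared.

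Among 12 regulators of NRF2, 2 rose in the RV and 3 in the LV. Nfe2l2 itself was at 1552 to 1742 normalized counts in RV nPAB and 1303 to 1811 in RV Sham, with log2 fold changes of 0.06 (limma adjusted p = 0.673) in the RV and -0.06 (limma adjusted p = 0.748) in the LV. Its nPAB range lay inside the Sham range in the RV. Keap1, its inhibitor, had log2 fold changes of 0.02 in the RV, -0.02 without mice 6 and 7, and 0.23 in the LV, and Bach1 of -0.06 and -0.09, none of which passed. Genes of small MAF proteins, the partners of NRF2 and BACH1, were the RV calls, Maff and Mafk, while the third on the list, Mafg, named after its values were seen, did not pass (0.10 in the RV and -0.09 in the LV). Maff was at 38.2 to 114 in RV nPAB against 16.5 to 27.4 in RV Sham, with no overlap (log2 fold change 1.63 ± 0.28 SE, limma adjusted p = 4.80e-04). In the LV, Maff rose by 1.20 (limma adjusted p = 0.0193). Mafk rose by 0.90 (limma adjusted p = 0.0216) in the RV and by 1.04 (limma adjusted p = 0.0122) in the LV, with overlapping groups. Rbx1, a ring subunit of the ubiquitin ligase, rose by 0.32 in the LV (limma adjusted p = 0.0446), a call that held in 10 of 23 alternatives. Of these calls only that of Maff in the RV held without mice 6 and 7.

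**Figure D5:**
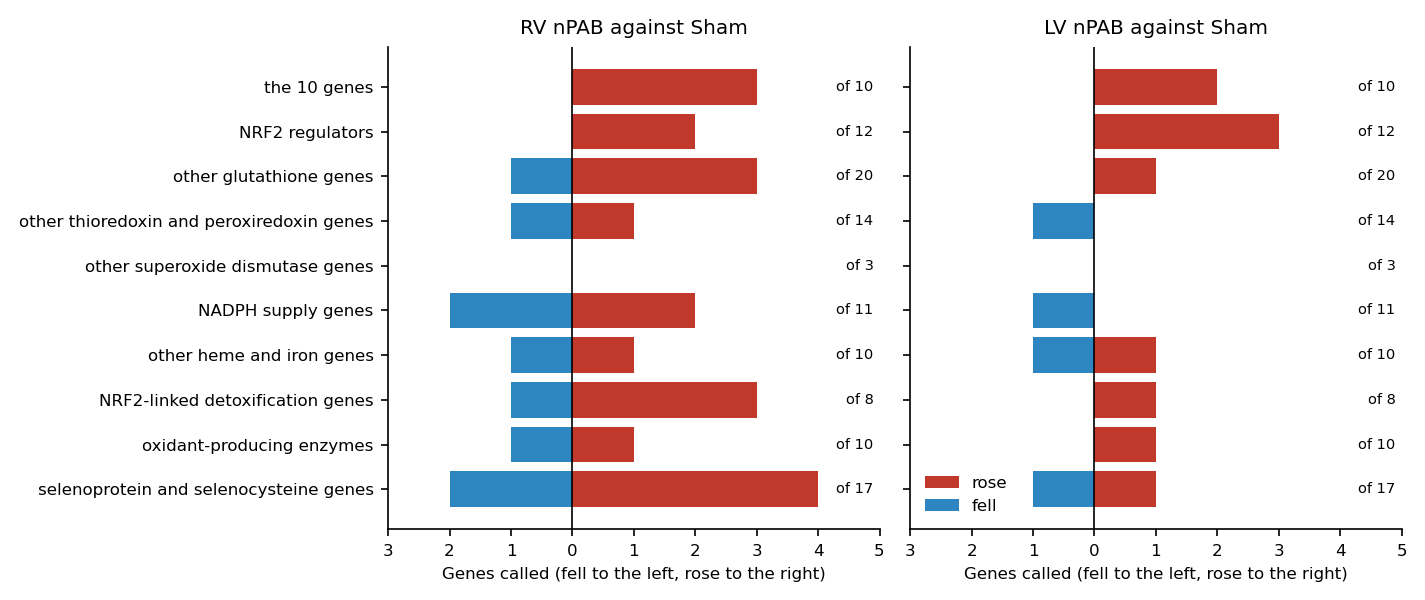
Number of genes called as rising (right, red) or falling (left, blue) in nPAB against Sham, for the 10 genes and 9 further lists, in the RV and the LV, with the number tested at the right. In the RV, 7 of the 9 further lists hold calls in both directions, and in the LV 2 do.

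Of 20 other glutathione genes tested, 3 rose and 1 fell in the RV, and 1 rose in the LV. Gsto1, an omega-class glutathione transferase, rose by 0.64 in the RV (limma adjusted p = 0.00172). Gpx4, the peroxidase that reduces lipid peroxides in membranes, rose by 0.45 (limma adjusted p = 0.00516), from 357 to 449 normalized counts in Sham to 476 to 699 in nPAB with no overlap. Gss, glutathione synthetase, which completes the tripeptide that Gclc and Gclm begin, rose by 0.53 (limma adjusted p = 0.0182). Gstt1, a theta-class glutathione transferase, fell by 1.92 on the log2 scale (limma adjusted p = 0.00191), and Gstm5 rose in the LV by 0.33 (limma adjusted p = 0.0361), a call that held in 12 of 23 alternatives.

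Of 14 other thioredoxin and peroxiredoxin genes, Txnip, which binds thioredoxin and limits glucose uptake, had the most marked change. Its counts fell from 6568 to 8885 in RV Sham to 1589 to 2916 in RV nPAB (log2 fold change -1.83 ± 0.14 SE, limma adjusted p = 1.47e-06). In the LV they fell from 6876 to 8616 in Sham to 1760 to 3701 in nPAB (log2 fold change -1.60, limma adjusted p = 0.00101), without overlap in either ventricle. Prdx4, the peroxiredoxin of the endoplasmic reticulum, rose by 0.40 in the RV (limma adjusted p = 0.0266), a call lost without mice 6 and 7. None of the 3 other superoxide dismutase genes passed in either ventricle.

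Genes that supply NADPH, the reductant that NQO1, thioredoxin reductase and glutathione reductase use, moved both ways in the RV: of 11, Tkt (0.47) and Pgd (0.37), both of the pentose phosphate pathway, rose, and Me1 (-0.45), the cytosolic malic enzyme, and Nadk2 (-0.96), the mitochondrial NAD kinase, fell. In the LV, Nnt, the transhydrogenase of the inner mitochondrial membrane, fell by 0.30 on the log2 scale (limma adjusted p = 0.0465), a call lost without mice 6 and 7. Of 10 other heme and iron genes, the iron exporter Slc40a1 fell in both ventricles (log2 fold change -0.93 in the RV and -0.83 in the LV). The heme transporter Slc48a1 rose in the RV (0.35), and Tfrc, the transferrin receptor, rose in the LV (0.43, limma adjusted p = 0.0345). The Tfrc call in the LV held in 10 of 23 alternatives (adjusted p up to 0.104). In the RV, Tfrc did not pass, but its log2 fold change was 0.37 to 0.57 over the alternatives and passed in 9 of 23.

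Of 8 NRF2-linked detoxification genes tested, 3 rose and 1 fell in the RV. They were Ephx1, microsomal epoxide hydrolase (log2 fold change 0.73, limma adjusted p = 0.00238), the exporter Abcc1 (0.46, limma adjusted p = 0.0261), the aldo-keto reductase Akr1b8 (0.61, limma adjusted p = 0.0497) and Nqo2, a relative of Nqo1 that does not use NADPH (-0.42, limma adjusted p = 0.0322). The calls of Abcc1 and Nqo2 were lost without mice 6 and 7, and that of Akr1b8 held in 11 of 23 alternatives (adjusted p up to 0.126). In the LV, Abcc4 rose by 1.02 (limma adjusted p = 0.0433), which held in 10 of 23 alternatives and was lost without mice 6 and 7. Of 10 enzymes that produce oxidants, Maoa, monoamine oxidase A, rose in the RV (0.92, limma adjusted p = 0.00250) and the LV (0.82, limma adjusted p = 0.0112, lost without mice 6 and 7), and Maob fell in the RV (-0.89, limma adjusted p = 0.0102).

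Gpx3, Gpx1 and Txnrd1 contain selenocysteine, and 17 other selenoprotein and selenocysteine genes were read for that reason. In the RV 4 rose and 2 fell, among them Selenow (0.65, limma adjusted p = 0.00264), a small selenoprotein of muscle, Selenof (0.30, limma adjusted p = 0.0141) and Selenoh (0.45, limma adjusted p = 0.0173). Selenop, the selenium carrier of plasma, fell by 0.43 on the log2 scale in the RV (limma adjusted p = 0.00110) and by 0.33 in the LV (limma adjusted p = 0.0140). Selenof rose in the LV as well (0.28, limma adjusted p = 0.0151). The RV call of Selenoh and both LV calls were lost without mice 6 and 7.

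Genes of 6 of the 7 marker lists passed in the RV. None of 10 macrophage markers passed in either ventricle, with sums of 1331 to 2345 normalized counts in RV nPAB and 1283 to 2335 in RV Sham. Of 6 erythroid markers tested, of red cells rich in catalase and Gpx1, Hbb-bt, whose reads are uncertain beside its close copy Hbb-bs, rose in the RV (0.64, limma adjusted p = 0.0221). Estimates lay above 0 for all 6 erythroid markers in the RV (log2 fold change 0.06 to 0.74) and in the LV (0.32 to 0.59), where none passed. The summed erythroid counts were 9930 to 16840 in RV nPAB against 9187 to 14654 in RV Sham. In the LV these sums were 10985 to 15863 in nPAB against 5501 to 13436 in Sham. Of 7 fibroblast markers, Pdgfra (-0.45) and Dpt (-0.74) fell in the RV and passed the test of the difference between ventricles (-0.58 and -0.49), and the RV sums were 25378 to 39094 in nPAB against 35484 to 45914 in Sham, and none passed in the LV. Of 4 atrial markers, whose sums were 3073 to 16184 in RV nPAB and 166 to 2525 in RV Sham, only Nppa passed, in both ventricles. Estimates lay above 0 for all 4 in the RV (log2 fold change 1.33 to 6.09) and for 2 in the LV (-0.76 to 2.96). Their RV minus LV differences were 1.60 to 3.13, none of which passed with all mice. Myl7, the atrial light chain, was at 368 to 6143 in RV nPAB and 72.0 to 1775 in RV Sham and did not pass (limma adjusted p = 0.316). Of 8 cardiomyocyte markers Actc1 (0.47) and Mybpc3 (0.28) rose and Tnni3 (-0.26), Ryr2 (-0.32) and Pln (-0.64) fell in the RV, with sums of 475890 to 620188 in nPAB against 501554 to 607826 in Sham. In the LV, Actc1 rose (0.32). Of 7 endothelial markers Flt1 rose (0.76 in the RV, 0.54 in the LV) and Tek fell (-0.68 and -0.47), with RV sums of 9852 to 12023 in nPAB against 10545 to 12292 in Sham. Of 4 smooth muscle markers Cnn1 rose (2.68 in the RV, 0.94 in the LV, and 1.74 for the difference), with RV sums of 2286 to 6352 in nPAB against 3111 to 10000 in Sham. Without mice 6 and 7 the RV calls of Tnni3 and Ryr2 and the LV calls of Actc1, Tek and Cnn1 were lost. No gene of these 7 lists was at 0 in all libraries of a group. The part of these cells in the changes of Gpx3, Nqo1, Gpx1 and Gclc was not tested.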

How the data were processed

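Bulk RNA-seq values of 22 ventricle libraries were used, grouped by treatment and ventricle from the sample titles. Per the labels' protocols, RNA was extracted with Qiagen RNeasy Plus Mini and made into libraries with Revelo RNA-Seq High Sensitivity. Tools and build in the submitters' processing notes are cutadapt, featureCounts, DESeq2 and mm10, with aligner and versions not given in the sources used here. For each ventricle the authors deposited a signal table: gene counts divided by size factors, normalized on its own. Whole reads were recovered from it (100% of values whole within 0.001) and gave the depths.

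Tests used limma 3.58.1 in R 4.3.3 (trend and robust options, two-sided) on log2(value + 1) of genes with a table mean of at least 10, adjusted over all of these genes by Benjamini-Hochberg. Alternatives were edgeR 4.0.16 and DESeq2 1.42.0 on the recovered reads, other pseudocounts, filters and scaling, library weights and a sex term. Further ones were a joint fit of both ventricles with the mouse number as a block, and fits with mice left out. The fits were also run on simulated counts, drawn separately for the RV and the LV with no effect shared by a mouse. That check does not cover the pairing by mouse. Figures used matplotlib 3.10.9. Symbols and coordinates are those of GENCODE M21 and promoters those of RefSeq (GRCm38.p6).

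The members and lists were chosen with earlier results of these data known. Named are all members, Nfe2l2, Keap1 and Bach1, and up to 4 called genes per pathway list with the smallest p. The labels give the LV and RV library of a mouse the same number. Over 12878 genes, deviations of such pairs from the group means correlated at 0.133 to 0.384 in 9 mice, all of which correlated best with their own number. The correlation was 0.171 for nPAB mouse 6 and 0.0559 for nPAB mouse 7. With the LV libraries of these mice crossed, it was 0.180 for RV 6 with LV 7 and -0.0444 for RV 7 with LV 6. Crossing thus matched the sexes but left RV 7 and LV 6 without a correlation like that of the other mice. All pairs of libraries within a group differed by more than sampling noise, with a chi-square of at least 7.47 per degree of freedom.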

Additional observations from a re-analysis of the deposited data

How the results depend on the processing

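The RV calls of Gpx3, Nqo1 and Gpx1 and the LV call of Gpx3 held in all 23 alternatives run for each. Depth limits Srxn1 most (22 reads in its lowest library), and with 6 against 5 mice small changes can be missed. The cause of the moves below was not tested, save that leaving out mice also leaves fewer samples.

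Over all genes, the LV count of 1260 became 739 in limma without trend and robust and 668 without nPAB mice 6 and 7. The RV minus LV count of 148 became 1 in limma without trend and robust, 261 with library weights, 251 with DESeq2, 501 without mice 6 and 7, and 80 to 393 with single mice left out (393 without nPAB mouse 7). Fitted with no replicate block for the mouse it was 5, and with the LV libraries of mice 6 and 7 crossed in the pairing it was 63. With both ventricles fitted together and the mouse number as a block, the RV count was 3124 and the LV count 1523. In that fit, which kept mice 6 and 7 as labelled, Gpx1 passed and Gclc did not pass in the LV.

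Of the calls named beyond the members, those of Akr1b8 (11 of 23 alternatives) and Pgd (15 of 23) in the RV, and of Gstm5 (12 of 23), Nnt (11 of 23), Rbx1, Tfrc and Abcc4 (each 10 of 23) in the LV held least often.

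Of the 10 members, the LV count of 2 became 1 without a filter on low values, 1 with a sex term, 4 with DESeq2, 1 without mice 6 and 7 and 1 to 2 with single mice left out. The RV minus LV count of 0 became 1 with DESeq2, 1 without mice 6 and 7 and 0 to 1 with single mice left out, in each case Gpx3.

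Signs turned only for changes that did not pass. Without mice 6 and 7 the log2 fold changes were 0.052 for Cat and -0.018 for Keap1 in the RV, and 0.029 for Sod2 and -0.28 for Akr1b8 in the LV. Akr1b8 in the LV was -0.011 with library weights. With single mice left out, the RV ranges were -0.013 to 0.069 for Gclm, -0.11 to 0.069 for Cat, -0.0038 to 0.11 for Nfe2l2 and -0.057 to 0.074 for Keap1. The LV ranges were -0.13 to 0.12 for Hmox1, -0.14 to 0.00056 for Nfe2l2 and -0.16 to 0.26 for Akr1b8. Those of the RV minus LV difference were -0.35 to 0.075 for Gclc, -0.13 to 0.019 for Txnrd1 and -0.25 to 0.43 for Srxn1.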
